A study of Saccharomyces cerevisiae with 8 samples.

Results

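The Sec61 translocon genes of Saccharomyces cerevisiae were followed in cells exposed to Iztli peptide 1 (IP-1). The set holds 10 genes, the subunits of the channels that carry proteins into the endoplasmic reticulum (ER) and the lumenal Hsp70 that works with them. They matched 11 of 6336 gene features on the array, since SSS1 had a pair of features. The members were chosen by function around SBH1, which itself was chosen by its measured ratio as the most lowered feature of the series. The mean ratios of the members are therefore given as a description, with no test.

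All cultures were haploid BY4741 cells of mating type a grown in rich YPD medium. Treated cultures were given 10 µM of the peptide, a synthetic antimicrobial built onto the mating pheromone of alpha cells, and were harvested after 3.5, 7, 15 or 30 min. Untreated cultures of the same age were the controls. Each exposure had 1 treated culture, labelled with Cy5, and 1 untreated culture, labelled with Cy3, on 1 spotted two-colour array with 2 spots per feature. The labels number these spots as replicates, but they measured the same RNA and were averaged, which left 4 independent ratios. No array had the dyes swapped, so a dye effect of a probe and an effect of the peptide cannot be told apart. In bulk RNA, fewer cells of a kind and less RNA per cell cannot be told apart either.

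Most secreted and membrane proteins enter the ER through a channel in its membrane. In the Sec61 complex, Sec61 forms the pore, Sss1 clamps it, and Sbh1 is a small peripheral subunit anchored by its tail. A second channel pairs the Sec61 relative Ssh1 with Sss1 and with Sbh2, the relative of Sbh1. Proteins imported after their synthesis also need Sec62, Sec63, Sec66 (also called Sec71) and Sec72, and the Hsp70 Kar2 (BiP), which the J domain of Sec63 recruits to pull the chain inward. KAR2 is also a classical target of the unfolded protein response.

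On these arrays the median spot was 2.43 to 3.84 times its local background in Cy3 and 1.86 to 3.77 times in Cy5. The SD of the log2 ratios over all tested features was 0.25 at 3.5 min, 0.22 at 7 min, 0.35 at 15 min and 0.18 at 30 min. With 4 arrays, their number limits how precise a mean can be. All 7 a-cell marker features exceeded the 95th percentile of the empty spots in both channels on 4 of 4 arrays. So did 3 of 4 alpha-cell marker features and 3 of 4 features of genes that carry a deletion in this strain, of which LEU2 was 240 to 451 times its Cy3 background. The alpha-cell and LEU2 signals go against the labelled mating type and the known deletion of LEU2 in BY4741, and the source of these signals was not tested. Signal above the empty spots is therefore not taken here as a sign of transcription. All 11 translocon features passed this limit and the separate limit for testing.

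The beta subunit gene SBH1 had less signal in treated than in untreated cells at every exposure. Its feature carries the locus name YER087C-A, which the reference table lists as a synonym of YER087C-B. The untreated channel had raw intensities of 20498, 19526, 14328 and 14282 after 3.5, 7, 15 and 30 min. The treated channel had 8566, 8581, 6274 and 7459. The lowest untreated value thus lay above the highest treated value, although raw intensities are not scaled between arrays or channels. Over the spots of all gene features the median raw log2 ratio of Cy5 over Cy3 was −0.15, −0.73, −0.04 and −0.10 after 3.5, 7, 15 and 30 min. After normalisation the log2 ratio of treated over untreated was −1.05, −1.21, −1.33 and −0.85. The mean was −1.11 ± 0.21 (SD, n = 4), or 2.16-fold lower. The spots of a pair differed by at most 0.11, so the spread between exposures exceeded that between spots.

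**Figure D1:**
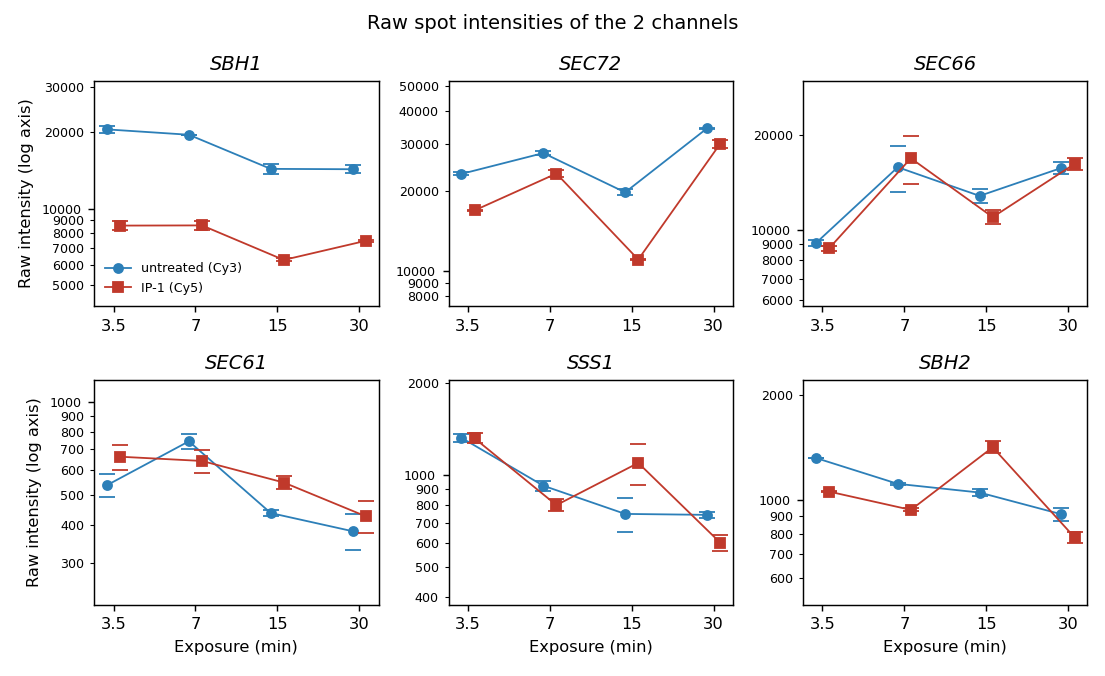
Raw spot intensity (log axis, scale differs between panels) against exposure in minutes for 6 translocon genes; circles and squares are the means of both spots in the untreated (Cy3) and the IP-1 (Cy5) channel, and dashes are single spots. For SBH1 the untreated values of 14282 to 20498 lie above the treated values of 6274 to 8581, while the channels lie closer together for the other 5 genes. Raw intensities are not scaled between channels or arrays.

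SBH1 ranked first from the lowest among 6152 tested features by its mean, and it ranked 2, 1, 11 and 4 from the lowest on the single arrays. The next features by mean were PFK27 at −0.997 ± 0.09 (SD), YNL120C at −0.92 ± 0.28 (SD) and PEX6 at −0.88 ± 0.42 (SD, n = 4 each). Both spots of SBH1 were at least 2-fold lower at 3.5, 7 and 15 min. Of all tested features, 0.0325% met that limit at 3.5 min, 0.0325% at 7 min and 0.878% at 15 min. At 30 min the SBH1 spots were at −0.88 and −0.81, and 0% of the features met the limit. These shares include the contrast by which SBH1 was found, and nothing is read from them.

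The position of SBH1 on the slide and in the genome was also described. The 8 tested features printed next to it had median ratios of 0.05, −0.03, −0.03 and 0.08 from the shortest to the longest exposure, and none of them was below −0.35. The 193 other tested features of its printed block had a lowest value of −0.75, −0.81, −1.28 and −0.62, each above the value of SBH1. In the R64 gene table AIM10 (YER087W) and DOT6, a repressor of ribosome biogenesis genes, neighbour SBH1 on either side. AIM10 was at 0.04, 0.22, −0.01 and −0.04 and DOT6 at 0.24, −0.01, 0.09 and 0.13. The next genes outward, ILV1 and PTC2, had means of 0.17 ± 0.14 and −0.17 ± 0.48 (SD, n = 4 each), and PTC2 was at −0.90 at 15 min. The features next to SBH1 on the slide and its nearest genes on either side thus did not share its low ratio, while PTC2 was also low on the 15 min array.

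The signal of SBH1 was strong, at 102 to 212 times the local background in Cy3 and 51.5 to 102 times in Cy5. At 15 min such bright features had lower and wider ratios than dim features, also after loess. The 101 non-member features within 0.5 log2 units of the mean brightness of SBH1 had a median of −0.37 and an SD of 0.52 at 15 min. Their medians were −0.11, −0.02 and −0.01 at 3.5, 7 and 30 min, with SDs of 0.28, 0.21 and 0.21. On each array 0 of these features lay at or below SBH1. The part of brightness in the ratio at 15 min was not tested.

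**Figure D2:**
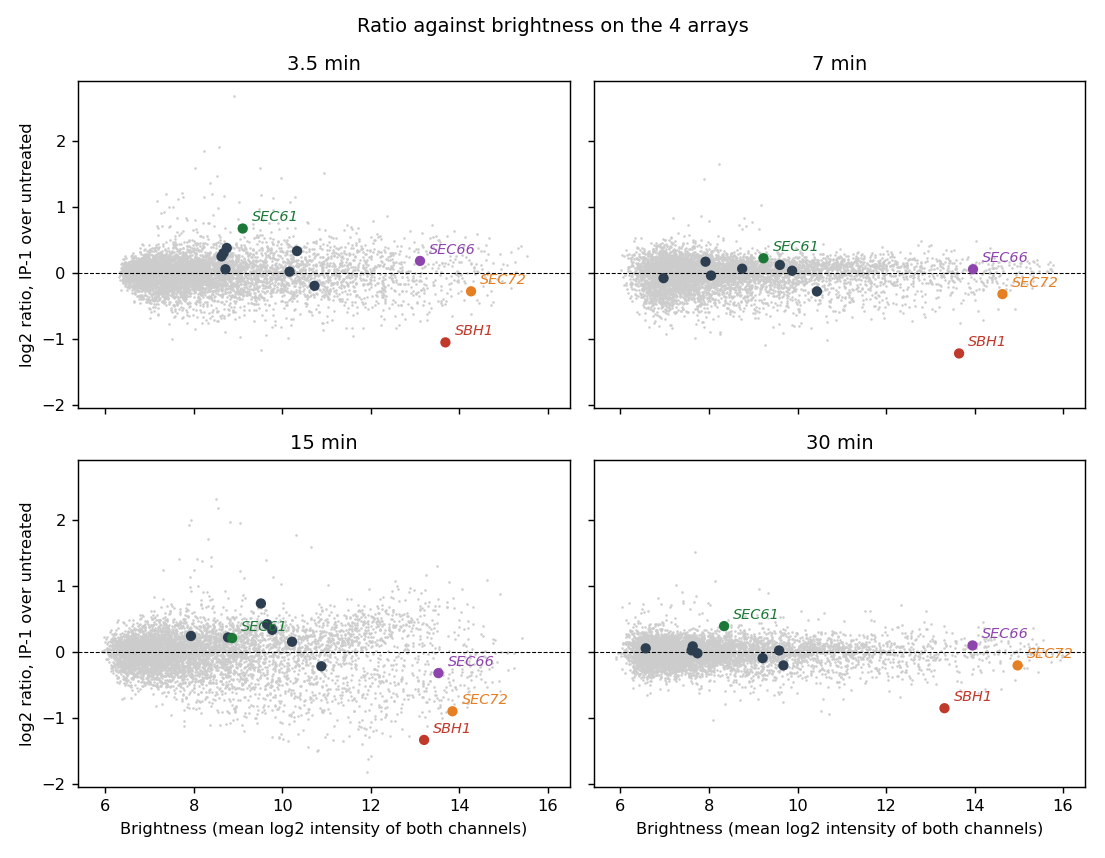
Log2 ratio of IP-1 over untreated against brightness (mean log2 intensity of both channels) on the 4 arrays; grey points are the 6152 tested features and large points the 11 translocon features. SBH1 is at −1.05, −1.21, −1.33 and −0.85, at the lower edge of the bright features, and the ratios of bright features are widest at 15 min.

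The paralogue SBH2, which takes the place of SBH1 in the Ssh1 channel, did not share the low ratio. Its raw intensities were 1318, 1112, 1050 and 910.4 in untreated and 1057, 937.1, 1414 and 782.3 in treated cells, so that the channels overlapped. Its log2 ratio was 0.02, 0.04, 0.16 and 0.03, with a mean of 0.06 ± 0.06 (SD, n = 4), or 0.15 with median centring in place of loess. The sign of this mean turned in the authors' log ratios as deposited, without centring, at −0.09 against a median of −0.23 over all features. The log2 ratio of SBH1 minus that of SBH2 was −1.07, −1.25, −1.49 and −0.87 on the same arrays. The difference averaged −1.17 ± 0.26 (SD, n = 4) and is a description, since SBH1 was chosen for its ratio.

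SEC61, the pore subunit, lay at the other end of the set by its mean. Its raw intensities were 536.5, 743.9, 435.8 and 380.6 in untreated and 663.2, 642.5, 547.1 and 425.5 in treated cells. The ranges overlapped, and the treated value was the higher of the pair at 3.5, 15 and 30 min. On the 7 min array the median raw log2 ratio of Cy5 over Cy3 was −0.73 over all gene features. After normalisation SEC61 was higher on 4 of 4 arrays, with log2 ratios of 0.68, 0.23, 0.21 and 0.40. The mean was 0.38 ± 0.22 (SD, n = 4; 1.30-fold), at rank 94 from the highest. On the single arrays SEC61 ranked 62, 562, 1340 and 82 from the highest. At 15 min the second SSS1 feature, at 0.74, was the highest member. The beta and the pore subunit of the same complex thus had opposite signs on every array. The log2 ratio of SBH1 minus that of SEC61 averaged −1.49 ± 0.20 (SD, n = 4). This difference is a description, since SBH1 was chosen for its ratio and SEC61 has the highest mean of the set.

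The gamma subunit SSS1, which belongs to both channels, had a pair of features. The feature named YDR086C was at 0.34, 0.13, 0.34 and −0.09, and the feature named YDR086C with the suffix -r at 0.38, 0.18, 0.74 and 0.03. No source used here says what the suffix marks. Their means were 0.18 ± 0.20 and 0.33 ± 0.31 (SD, n = 4 each). The first lay below the second on each array, with differences of −0.05, −0.05, −0.40 and −0.12 and a mean difference of −0.15 ± 0.17 (SD, n = 4). The spots of a pair differed by up to 0.11 on the first feature and up to 0.22 on the second. Only the difference at 15 min was larger than both. On both features the ratio was lowest at 30 min. It was highest at 15 min on the -r feature, while the first feature was at 0.34 at both 3.5 and 15 min. SSH1, the pore subunit of the second channel, was at 0.26, 0.07, 0.42 and −0.01, highest at 15 min and lowest at 30 min. Its mean was 0.18 ± 0.20 (SD, n = 4). The mean of SSH1 was −0.00237 in the deposited log ratios, against a median of −0.23 over all features. It was above 0 in the other 15 alternatives.

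**Figure D3:**
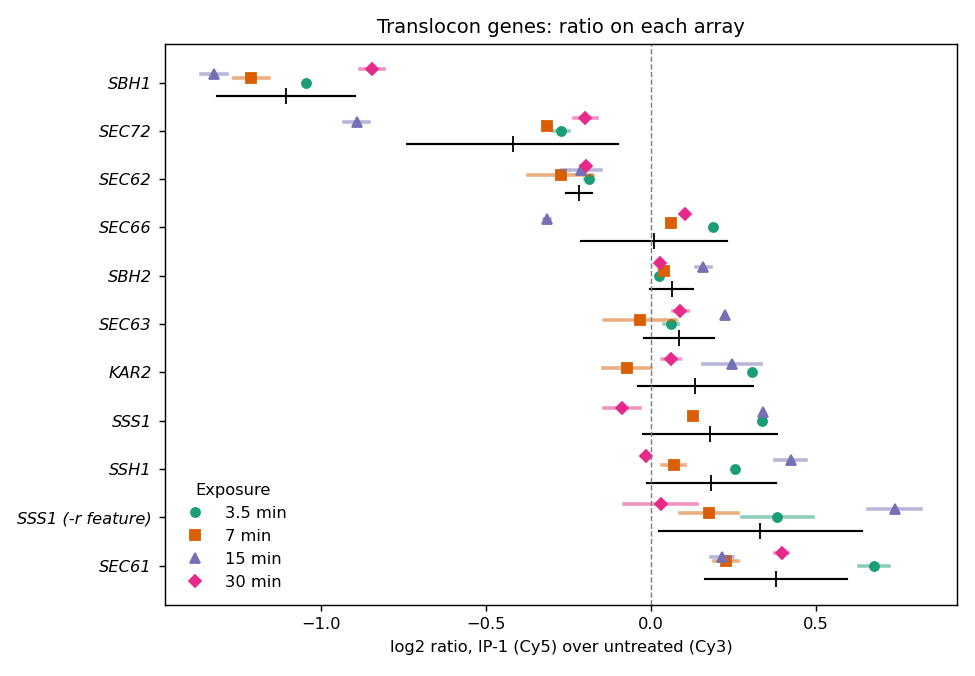
Log2 ratio of IP-1 over untreated for the 11 translocon features, ordered by mean; symbols are the arrays by exposure, coloured bars join the spots of a pair, and black lines are the mean ± SD of 4 arrays. SBH1 stands at −1.11 ± 0.21 and is the lowest member on each array, and SEC61 has the highest mean, 0.38 ± 0.22.

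In the Sec62/Sec63 complex, the subunits differed in sign. SEC62, which encodes an essential membrane subunit, was lower on 4 of 4 arrays, at −0.19, −0.27, −0.21 and −0.20. Its mean was −0.22 ± 0.04 (SD, n = 4; 1.16-fold lower), a narrow spread between exposures next to spots that differed by up to 0.20. With median centring in place of loess the mean was −0.10. SEC63, which encodes the subunit with the J domain, was at 0.06, −0.03, 0.23 and 0.09, with a mean of 0.09 ± 0.11 (SD, n = 4). Its sign turned in the deposited log ratios, at −0.17 against the median of −0.23.

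The non-essential subunits SEC66 and SEC72 were both bright features. SEC72 was lower on 4 of 4 arrays, at −0.27, −0.32, −0.89 and −0.20, with a mean of −0.42 ± 0.32 (SD, n = 4; 1.34-fold lower). Its raw intensities were 23218, 27832, 19764 and 34517 in untreated and 16889, 23287, 11007 and 30153 in treated cells, which overlap between arrays. SEC66 was at 0.19, 0.06, −0.32 and 0.10, with a mean of 0.01 ± 0.22 (SD, n = 4), and its sign turned in 4 of 16 alternative settings. Both had their lowest ratio at 15 min. There the features of similar brightness had medians of −0.30 for SEC72 (71 features) and −0.45 for SEC66 (95 features). Without the 15 min array the means were −0.26 for SEC72 and 0.12 for SEC66. With median centring in place of loess they were −0.22 and 0.19. SEC72 lay below SEC66 on each array, with differences of −0.46, −0.38, −0.58 and −0.30.

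KAR2, the lumenal Hsp70, was at 0.31, −0.07, 0.25 and 0.06, with a mean of 0.13 ± 0.17 (SD, n = 4). Its sign turned in the deposited log ratios, at −0.17 against the median of −0.23. The feature was dim, at 1.59 and 1.54 times the Cy3 background at 7 and 30 min against 6.65 and 3.51 times at 3.5 and 15 min. The background correction draws the ratios of such dim spots toward 0. With an offset of 0 in place of 50 the mean was 0.18. At 3.5 min the spots had raw Cy3 intensities of 186.5 and 1104, or 2.15 and 11.1 times the background, yet their ratios were 0.31 and 0.30. Of the unfolded protein response, HAC1, its transcription factor, and IRE1, its sensor in the ER membrane, were tested. HAC1 was at 0.14 ± 0.23 (limma, adjusted p = 0.35) and IRE1 at −0.04 ± 0.11 (SD, n = 4 each; adjusted p = 0.72), and the IRE1 feature was not above the empty spots on all arrays.

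Taking the members in the order of their means, SBH1 was followed by SEC72, SEC62, SEC66, SBH2, SEC63, KAR2, SSS1, SSH1, the second SSS1 feature and SEC61. The values of each neighbouring pair in this order overlapped between arrays, for SBH1 and SEC72 only through SEC72 at 15 min (−0.89) and SBH1 at 30 min (−0.85). Within each array SBH1 was the lowest member and SEC72 the second lowest, at −0.27, −0.32, −0.89 and −0.20. Of the 11 features, 8 had a mean above 0 and 3 below, with a median of 0.09 against 0.01 over all tested features. Both SSS1 features are among the 8, and nothing is read from the count.

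Of the 11 features, 6 kept the same sign on 4 of 4 arrays, or 54.5%, against 36.9% of all tested features. SBH1, SEC62 and SEC72 were lower on every array, and SBH2, SEC61 and the second SSS1 feature were higher. The choice of the set used this contrast, so nothing is read from the count. Leaving out the 15 min array moved several means by over 1.5 times, to 0.03 for SBH2, 0.04 for SEC63, 0.10 for SSH1 and 0.20 for the second SSS1 feature. For KAR2 the mean became 0.08 when the array of 3.5 min was left out, and 0.20 when that of 7 min was.

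The trend with exposure was not used to choose the members and could be tested. The slope on log2 of the minutes, the change in log2 ratio for each doubling of the exposure, did not pass the test for any member. The limma fit called 0 of the 11 features, each with an adjusted p of 1.00, and 0 had an unadjusted p under 0.05. Over all tested features it called 0%, and 0.992% had an unadjusted p under 0.05. The slope of SBH1 was 0.05 (SE 0.08) per doubling, with a 95% interval of −0.14 to 0.23. The slopes of SSS1 and SEC61 were −0.10 (SE 0.07) and −0.08 (SE 0.08). The intervals of the 11 features lay between −0.28 and 0.23 in this fit, and trends within them could not be resolved with 4 arrays. The slopes depended on single arrays. With 1 array left out the slope of SBH1 ran from −0.13 to 0.17. That of SEC72 was −0.30 without the 30 min array, beyond these bounds.

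**Figure D4:**
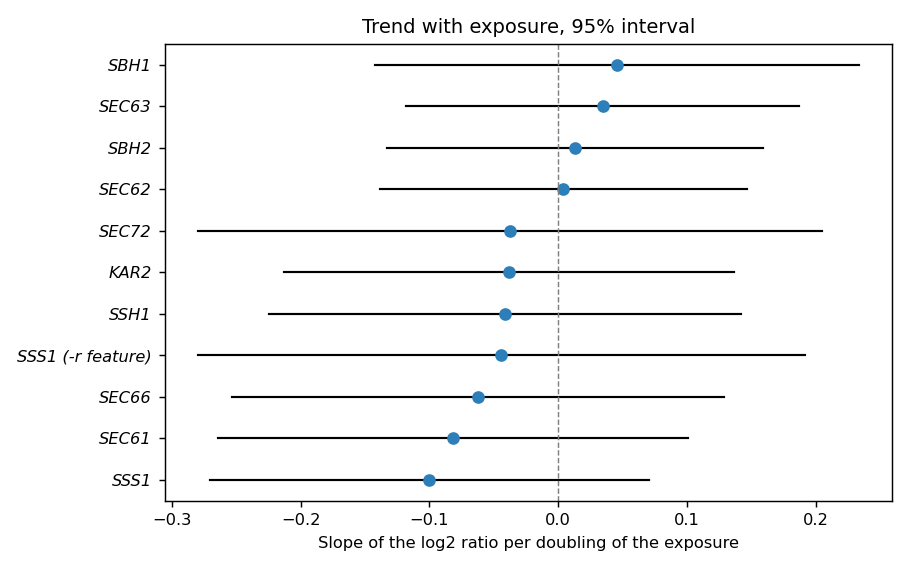
Slope of the log2 ratio per doubling of the exposure for the 11 translocon features; points are limma estimates from 4 arrays and bars are 95% intervals. The estimates lie between −0.10 and 0.05, and every interval includes 0.

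The features with values most like SBH1, by the root mean square difference over the 4 arrays, were PFK27 (0.20), YNL120C (0.26) and FAL1 (0.28). PFK27 encodes a 6-phosphofructo-2-kinase and was at −0.88, −0.98, −1.10 and −1.02. FAL1 encodes a nucleolar helicase of ribosome maturation and was at −0.72, −0.89, −1.20 and −0.56. For SEC61 they were AMF1 (0.05), AHP1 (0.09) and FIT1 (0.11), where AHP1 encodes a peroxiredoxin and FIT1 a cell wall protein of iron uptake. The match for SBH1 used the ratios for which it was chosen. PFK27 and YNL120C were also the next features from the lowest by mean, while SEC72, the next member, had a mean of −0.42. None of these 6 genes encodes a subunit of the channels, and nothing is read from this.

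The genes that work before and after the channels were counted in lists of targeting, folding, degradation and export factors. Of 83 genes 78 were tested, and 0 rose while 6 fell on the mean by the limma test. That is 7.69%, against 8.91% of all tested features, of which 2.08% were called higher and 6.83% lower. Their median was 0.04, against 0.01 over all features. The list share lay near the background, and 0 of the genes passed the test of the slope.

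Among the targeting factors, SND2, a membrane component of the SRP-independent route to the channel, fell most. It was at −0.35, −0.57, −0.66 and −0.48, with a mean of −0.51 ± 0.13 (SD, n = 4; limma, adjusted p = 0.0093). GET3, the ATPase that delivers tail-anchored proteins, the class to which Sbh1 belongs, was at −0.13, −0.22, −0.47 and −0.37. Its mean was −0.30 ± 0.15 (SD, n = 4; limma, adjusted p = 0.046). Of the 9 tested GET and SND genes, 2 fell and 7 did not pass the test, with 6.83% of all tested features called lower. Of 6 tested genes of the signal recognition particle and its receptor, SRP21 fell, at −0.33 ± 0.16 (SD, n = 4; limma, adjusted p = 0.035), on a feature that was not above the empty spots on all arrays.

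Among the factors that act at or behind the channel, SWP1, a subunit of the oligosaccharyltransferase that glycosylates incoming chains, was at −0.52, −0.49, −0.26 and −0.36. It fell by 0.41 ± 0.12 on average (SD, n = 4; limma, adjusted p = 0.017), and the other 7 tested subunits did not pass. EMC1, of the complex that inserts membrane proteins, was 1 of 8 tested and fell, at −0.33 ± 0.09 (SD, n = 4; limma, adjusted p = 0.023). MPD1, a lumenal disulfide isomerase, was 1 of 15 tested folding factors and fell, at −0.26 ± 0.08 (SD, n = 4; limma, adjusted p = 0.043). Over the alternative settings the call held in 11 of 16 for SND2, SWP1 and EMC1, in 8 of 15 for SRP21, in 6 of 16 for MPD1 and in 2 of 16 for GET3. All 6 calls were lost without the 3.5 min array, where the adjusted p values were 0.058 to 0.15, and without the 7 min array, where they were 0.085 to 0.17.

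In the other lists 0 genes passed the test. Among the tested genes, their largest means were 0.22 for the signal peptidase subunit SPC2 (limma, adjusted p = 0.12), 0.26 for the cytosolic Hsp70 gene SSA3 (0.057), −0.29 for HRD3 of the degradation ligase (0.14), 0.17 for the COPII scaffold SEC16 (0.14) and 0.34 for YET3 (0.054), whose protein associates with the channels. The SEC16 feature was not above the empty spots on all arrays, at 1.31 to 1.52 times its Cy3 background.

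**Figure D5:**
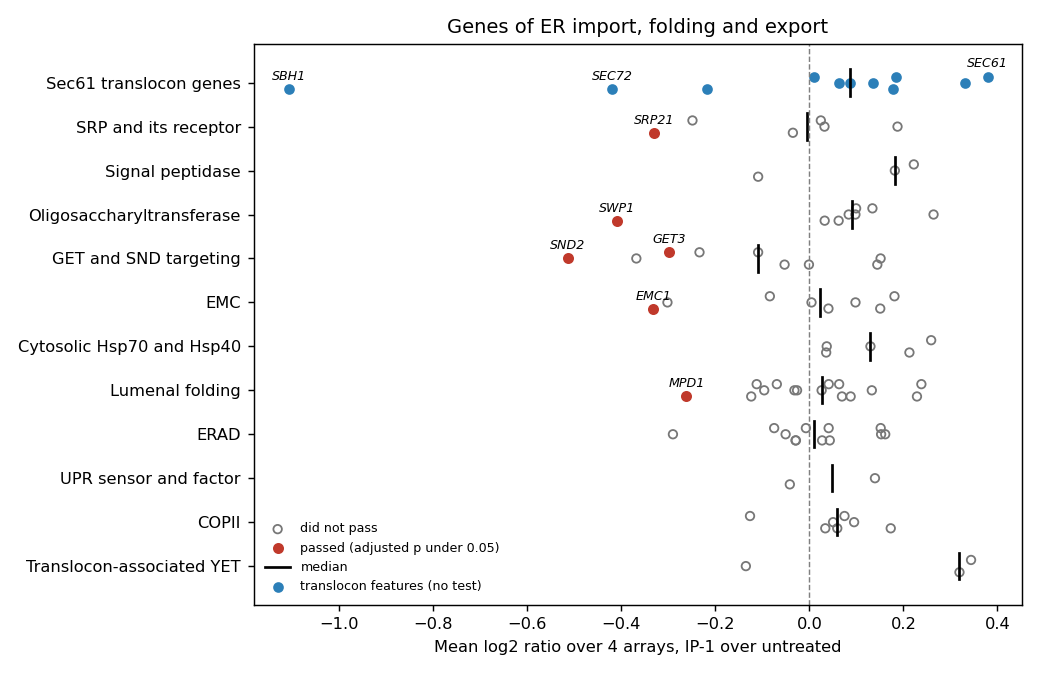
Mean log2 ratio of the tested genes of 11 lists of ER import, folding and export, 1 point per gene and a bar at each list's median, with the genes that passed the limma test in red and the 11 translocon features, given as a description, in blue on top. The 6 red genes lie between −0.51 and −0.26, and the medians of the 11 lists lie between −0.11 and 0.32.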

How the data were processed

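Transcript levels were measured on 4 spotted arrays, 1 per exposure. Per the file headers, the deposited scanner tables give each spot's mean raw intensity in both channels, with the local background and its SD. The deposited series matrix holds log10 ratios of raw Cy5 over raw Cy3, which equal the ratios of the scanner tables within 4.98e-07. The scanner software and the genome build are not given in the sources used here.

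Intensities were corrected with normexp (offset 50) and normalised by global loess (span 0.3, 4 iterations) with limma 3.58.1 in R 4.3.3, with weight 0 for empty and control spots. Spots of a pair were averaged. Features were tested if both spots exceeded the background by 2 background SDs in a channel on all 4 arrays, which kept 6152 of 6336. limma tested the mean against 0 and the slope on log2 minutes, with Benjamini-Hochberg adjustment over all tested features. Since no exposure was repeated, the spread behind each p-value mixes time, culture, labelling and hybridisation. By locus, 5847 features matched the R64 gene table. Figures were drawn with matplotlib 3.10.9.

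Members and gene lists were chosen with earlier results of these data known. Named were all members, each list gene called, the largest mean in a list with none, and the 3 features most like SBH1 and SEC61. Of the list genes, OST4 was not matched and 4 did not pass the filter. On simulated data for the slope over 6152 features, 0% of 200 features changed by 0.25 per doubling were called and 91.9% of those changed by 0.5. For the mean, 86.5% of features changed by 0.5 were called. The replicate numbers mark spots on 1 array and pair no cultures. Alternatives changed the background, normalisation, filter, spots, arrays and variance prior.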

Additional observations from a re-analysis of the deposited data

Results flagged for a closer look

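In 2 members 1 array stood apart from the other 3 by Dixon's test at the 95% level. The log2 ratio of SBH2 was 0.16 at 15 min, against 0.02 to 0.04 on the other arrays. The log2 ratio of SEC72 was −0.89 at 15 min, against −0.32 to −0.20 on the others. Chance flags about 1 in 20 groups. Both lay on the 15 min array, whose ratios had the widest spread (SD 0.35 over all tested features).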

How the results depend on the processing

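Over 16 alternatives the mean of SBH1 lay between −1.20 and −0.93, between −1.20 and −1.03 with 1 array left out, and its rank from the lowest was 1 to 5. It ranked 4 with plain background subtraction, 5 with an offset of 0, and 2 with an offset of 10, median centring or the deposited log ratios. The members' median turned to −0.0889 in the deposited log ratios, whose overall median was −0.23. Of the 11 features, 6 kept their sign in every alternative, and 0 slopes of members passed in any. The 6 lower calls in the ER lists became 1 without background subtraction, 3 with median centring, 0 with the deposited log ratios, 3 with the second spot alone, 0 with a trended robust prior and 0 to 4 with 1 array left out. The 0 higher calls became 2 with plain subtraction, and 1 with an offset of 0, an offset of 10 or the second spot alone. Of all features, 128 were called higher and 420 lower. These became 50 and 213 without background subtraction, 78 and 226 with median centring, 7 and 52 with the deposited log ratios, and 0 and 0 with the trended robust prior, where 1722 features had an unadjusted p under 0.05 and the smallest adjusted p was 0.075. With 1 array left out they were 7 to 154 and 2 to 421. Without the 3.5 min array 12 features were called in all and without the 7 min array 10, against 548. Slope calls were 0 to 5 higher and 0 to 26 lower with 1 array left out. With the replicate number as a block and the array as a random block (correlation 0.677), 212 features were called higher and 570 lower, and of the ER list genes 3 higher and 7 lower. The causes were not tested. Dim features limit what can be read of KAR2.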
